A study of Mus musculus with 9 samples.

Results

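The 10 genes described here, Shh, Fgf5, Lgr5, Edar, Sox9, Lef1, Msx2, Foxn1, Gata3 and Dsg4, are regulators of the mouse hair follicle and 1 adhesion molecule of the hair shaft. They were taken by name from a gene table of 54532 genes, in which each of these 10 symbols stood once. The samples were 9 whole-skin biopsies of wild-type mice, sequenced as bulk mRNA: 3 from mice given bleomycin together with nitrate therapy, 3 from mice given bleomycin alone, and 3 from healthy wild-type controls given neither agent. Bleomycin is a DNA-damaging antibiotic used to provoke fibrosis of mouse skin as a model of systemic sclerosis, and the series title gives the nitrate as a topical application. The study asked how nitrate changes gene expression across the genome in this model. The labels used here give no dose, time, strain, sex, age or body site, do not say whether controls received a vehicle, and do not say whether each biopsy came from its own mouse. If they did not, the p-values below measure spread that is partly technical.

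The follicle is a small organ that cycles through growth, regression and rest. Stem cells sit in the bulge and in the hair germ beneath it. In growth, Wnt signals through beta-catenin and hedgehog signals start a new matrix, whose dividing cells take on the fates of the hair shaft and of the inner root sheath around it. Receptors and transcription factors of this sequence are active in different layers and at different stages, and many of them are also used outside the follicle.

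The Foxn1, Lef1 and Edar promoters are shown because these genes span the pattern reported below: Foxn1 and Lef1 ordered the libraries most like the hair keratins, and Edar was the member too low to test. Each sequence is the 250 bases before a RefSeq transcript start on the GRCm38.p6 build, read 5′ to 3′ on the strand of the gene. Capitals mark a match to one of the motifs searched.
Foxn1 chr11:78386609-78386858 (minus strand): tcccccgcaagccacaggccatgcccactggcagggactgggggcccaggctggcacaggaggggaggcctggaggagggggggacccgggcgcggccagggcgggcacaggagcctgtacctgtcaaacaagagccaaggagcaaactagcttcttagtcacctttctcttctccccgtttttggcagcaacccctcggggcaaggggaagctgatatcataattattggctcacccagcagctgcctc
Lef1 chr3:131110047-131110296 (plus strand): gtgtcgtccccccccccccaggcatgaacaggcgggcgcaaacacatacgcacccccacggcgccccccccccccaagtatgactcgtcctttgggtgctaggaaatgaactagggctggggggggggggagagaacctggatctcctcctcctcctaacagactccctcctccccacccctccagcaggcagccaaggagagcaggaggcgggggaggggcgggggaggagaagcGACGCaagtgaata
Edar chr10:58675697-58675946 (minus strand): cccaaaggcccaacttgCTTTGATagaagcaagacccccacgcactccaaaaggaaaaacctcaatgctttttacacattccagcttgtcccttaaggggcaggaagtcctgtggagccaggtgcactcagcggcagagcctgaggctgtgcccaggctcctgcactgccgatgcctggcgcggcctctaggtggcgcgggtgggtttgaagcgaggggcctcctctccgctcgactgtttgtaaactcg
The motifs were searched on both strands, and none of the matches in the printed sequences overlapped another. The printed Lef1 window held 1 GACGC, the core bound by Foxn1, at position -14 counted from the start, a motif that 22.6% of 32851 RefSeq promoter windows of the same length also held. Lef1 has other RefSeq starts. The overlapping window from 131110073 held the same GACGC at position -40. The window from 131112541 held no motif, and that from 131156044 held only a match to the TATA box named below. The Gata3, Fgf5 and Msx2 windows held GACGC too. The Msx2 window lay wholly in exons annotated on its strand, and the Gata3 window lay inside the annotated Gata3 gene. The Edar window held 1 CTTTGAT, the motif of Lef1 and its relatives, at position -233, which 3.21% of windows held. The Foxn1 window held none of the motifs searched. Besides the motifs already given, the search covered the Sox family motif AACAAT (in 9.42% of windows), the Msx family motif TAATTG (in 7.17%) and the Gata family motif AGATAA (in 9.99%). It also covered the Gli motif GACCACCCA (in 0.225%), the NF-kappa-B site, given by name alone (in 1.21%), and the TATA box, spelled TATAAA (in 12.4%). A match is a string of letters, not a measured binding site. Promoters of 6 of the 10 members were matched in the RefSeq table.

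Lgr5 and Sox9, both tied to follicle stem cells, were the members that rose in skin given bleomycin plus nitrate relative to control skin. Lgr5 averaged 5.04 ± 0.934 FPKM in bleomycin plus nitrate skin and 1.86 ± 0.260 FPKM in control skin (SD, n = 3 each). Sox9 averaged 21.1 ± 5.67 FPKM in bleomycin plus nitrate skin and 6.03 ± 2.13 FPKM in control skin (SD, n = 3 each). The differentiation genes Msx2, Foxn1 and Dsg4 showed larger ratios of means, 15.3, 6.66 and 7.52, but their replicates were spread so widely that none passed the test. Bleomycin alone changed no member past the test relative to control skin. Between bleomycin plus nitrate and bleomycin alone, 0 members and 0 of all tested genes passed. No group was given nitrate without bleomycin, so the comparison with control changes both agents together. The calls of Lgr5 and Sox9 were each lost when certain single libraries were left out. FPKM is fragments per kilobase of transcript, scaled per library, so levels can be set side by side between genes. The deposited values were not scaled by the reads recovered from them alone. A read on 1 kilobase was worth 0.0526 FPKM in bleomycin plus nitrate replicate 3, with 17431933 recovered reads. It was worth more, 0.0595 FPKM, in control replicate 2, which had more reads, 18352592. The sources used here do not state the scaling, and comparisons between libraries rest on it.

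The test was limma on log2(FPKM + 1), which understates the change of low genes, with Benjamini-Hochberg adjustment over 14645 genes and a call at an adjusted p under 0.05. Of the 10 members, 9 reached 1 FPKM in at least 3 of the 9 libraries and were tested. Each of the 9 reached that level in libraries of at least 2 groups, so none was tested on the strength of a single group. Between bleomycin plus nitrate and control, 2 of the 9 were called, both higher, where 3.63% of all tested genes were called higher, 4.9% lower and 8.53% in either direction. All 9 fold changes were above 0, with a median of 1.26 against 0.02 for all tested genes. The groups did not overlap for Lgr5, Sox9 and Msx2, and 17.3% of all tested genes lay wholly higher in this comparison. Counts over so few genes, chosen with the earlier results known, are descriptions.

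**Figure D1:**
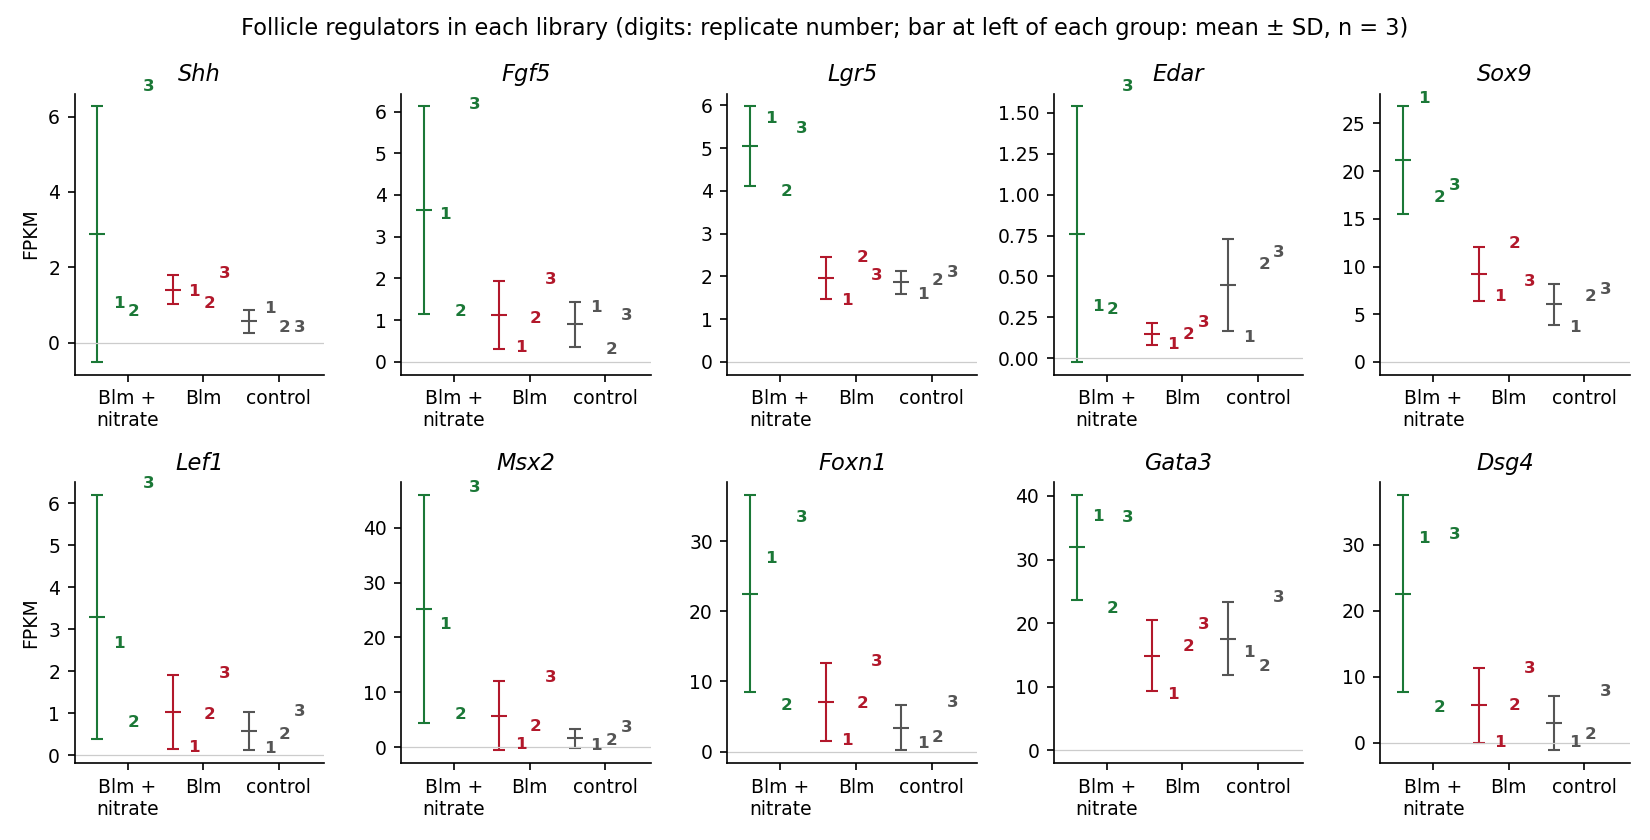
FPKM of the 10 members (vertical axes, linear, scaled per gene) in bleomycin plus nitrate (Blm + nitrate), bleomycin (Blm) and control skin. Digits are replicate numbers and the bar at the left of each group is its mean ± SD (n = 3), which dips below 0 where the spread exceeds the mean. Lgr5 and Sox9 in bleomycin plus nitrate skin lie above every other library, while Foxn1 and Dsg4 in nitrate replicate 2 lie among the bleomycin and control values.

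Reads recovered from the FPKM values came to between 15804050 and 18352592 per library. The number of reads behind a member ran from 1 for Dsg4 in bleomycin replicate 1 to 2951 for Msx2 in bleomycin plus nitrate replicate 3. All 9 libraries carried the label's tissue, with 9 epidermal genes summing to at least 2306 FPKM in each, but they differed in tissue content. The mean log2(FPKM + 1) of 12 hair shaft keratins was 7.33, 4.91 and 7.60 in bleomycin plus nitrate replicates 1, 2 and 3, against 0.52, 4.84 and 6.19 in bleomycin replicates and 0.07, 2.79 and 5.13 in control replicates. Control replicate 1 and bleomycin replicate 1 therefore held almost no hair shaft RNA. The summed FPKM of 8 skeletal muscle genes was 1955 to 8938 in bleomycin plus nitrate skin, 2580 to 11470 in bleomycin skin and 12483 to 18234 in control skin. The mean log2(FPKM + 1) of 6 fat cell genes was 3.74 to 5.80 in bleomycin plus nitrate skin, 5.66 to 5.97 in bleomycin skin and 6.34 to 7.09 in control skin, and that of 9 melanocyte genes was 2.33 to 3.90, 2.32 to 3.08 and 1.25 to 2.05 in the same order of groups. Over 10 sebaceous gland genes it was 5.31 to 5.98 in bleomycin plus nitrate skin, 4.12 to 5.58 in bleomycin skin and 5.07 to 5.86 in control skin. Mitochondrially encoded genes took 2.84 to 4.49% of reads in bleomycin plus nitrate skin, 3.77 to 4.17% in bleomycin skin and 6.61 to 8.02% in control skin. In a bulk biopsy fewer cells of a type and less RNA per cell cannot be told apart, and the part that tissue content played in the results was not tested beyond the keratin adjustment given below.

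Among the ligands, Shh (ENSMUSG00000002633, mm10 chromosome 5, 28456815 to 28467256, minus strand) is the hedgehog signal of the growing matrix and hair germ. Its levels were 1.03, 0.824 and 6.79 FPKM in bleomycin plus nitrate replicates 1 to 3, 1.36, 1.05 and 1.83 FPKM in bleomycin replicates, and 0.919, 0.397 and 0.404 FPKM in control replicates. A single library, nitrate replicate 3, stood far above the other 8, and the other 2 nitrate libraries lay below every bleomycin library. These values rest on 54, 43 and 368 reads in nitrate libraries, 63, 52 and 92 in bleomycin libraries and 40, 19 and 20 in control libraries. Shh was the member whose bleomycin libraries all lay above the control libraries, yet its log2 fold change for bleomycin over control was 0.62 ± 0.50 (SE, limma, adjusted p = 0.452). For bleomycin plus nitrate over control it was 0.98 ± 0.50 (SE, adjusted p = 0.208).

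Fgf5 (ENSMUSG00000029337, chromosome 5, 98254184 to 98277030, plus strand) encodes the secreted factor that ends the growth phase, and mice without it have overlong hair. It stood at 3.53, 1.20 and 6.18 FPKM in bleomycin plus nitrate skin, 0.343, 1.04 and 1.97 FPKM in bleomycin skin, and 1.31, 0.285 and 1.10 FPKM in control skin. Nitrate replicates 1 and 3 were the highest of the 9 libraries, while nitrate replicate 2 lay below bleomycin replicate 3 and control replicate 1. For bleomycin plus nitrate over control, the log2 fold change was 1.17 ± 0.46 (SE, limma, adjusted p = 0.128). Without nitrate replicate 2 it was 1.63 and passed, at an adjusted p of 0.0304. With other single libraries left out in turn, it ran as low as 0.78. Leaving out a library also moved the genes called in this comparison, from 45 to 2882 of all tested genes, against 1249 in the main fit.

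Of the receptors, Lgr5 (ENSMUSG00000020140, chromosome 10, 115450311 to 115587780, minus strand) binds R-spondins, which strengthen Wnt signalling, and it marks cycling stem cells of the lower bulge and hair germ. Lgr5 measured 5.70, 3.97 and 5.46 FPKM in bleomycin plus nitrate skin, 1.45, 2.43 and 2.02 FPKM in bleomycin skin, and 1.58, 1.90 and 2.10 FPKM in control skin. Every nitrate library was above every library of the other groups, and bleomycin and control libraries were interleaved. Its coefficient of variation in nitrate skin, 18.5%, was the lowest of the 10 members. Over control, its log2 fold change was 1.07 ± 0.17 (SE, limma, adjusted p = 0.0167, 95% interval 0.68 to 1.46). Over bleomycin it was 1.03 ± 0.17 (SE, limma, unadjusted p = 2.6e-04, adjusted p = 0.0781), which did not pass. Bleomycin over control gave 0.04 ± 0.17 (SE, adjusted p = 0.897), with a 95% interval from -0.35 to 0.44 that leaves room for changes of that size. The call against control was lost without nitrate replicate 3 (adjusted p = 0.0602), control replicate 1 (0.0612), control replicate 2 (0.0686) or control replicate 1 and bleomycin replicate 1 together (0.0714), with a range of 0.0102 to 0.120 over all alternatives.

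Edar (ENSMUSG00000003227, chromosome 10, 58600789 to 58675654, minus strand) is the receptor for ectodysplasin, which sets out hair placodes in the embryo through NF-kappa-B. It was the lowest member, at 0.315, 0.300 and 1.66 FPKM in bleomycin plus nitrate skin, 0.0843, 0.143 and 0.218 FPKM in bleomycin skin, and 0.126, 0.572 and 0.648 FPKM in control skin. The values came from 21, 20 and 115 reads in nitrate libraries, 5, 9 and 14 in bleomycin libraries and 7, 35 and 41 in control libraries. All nitrate libraries were above all bleomycin libraries, an arrangement found in 9.4% of all tested genes and resting here on 20 reads against 14 where the groups come closest. Control libraries overlapped both groups. Edar reached 1 FPKM in nitrate replicate 3 alone and has no test.

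Sox9 (ENSMUSG00000000567, chromosome 11, 112782224 to 112787760, plus strand) is the transcription factor that bulge stem cells and the outer root sheath need. It measured 27.6, 17.2 and 18.5 FPKM in bleomycin plus nitrate skin, 6.85, 12.4 and 8.43 FPKM in bleomycin skin, and 3.61, 6.86 and 7.62 FPKM in control skin. Every nitrate library lay above all bleomycin and control libraries. Its rise over control was 1.68 ± 0.30 on the log2 scale (SE, limma, adjusted p = 0.0201). It was 1.12 ± 0.30 over bleomycin (SE, adjusted p = 0.136) and 0.56 ± 0.30 for bleomycin over control (SE, adjusted p = 0.268). The call against control was lost without nitrate replicate 1 (adjusted p = 0.0516), nitrate replicate 3 (0.0615), control replicate 1 (0.0603), control replicate 2 (0.0709), control replicate 1 and bleomycin replicate 1 together (0.0703) or the filter on low values (0.0506), with a range of 0.0140 to 0.148 over all alternatives. Sox9 is also a cartilage gene; the cartilage genes Col9a1 and Matn1 were at 0 in 6 and 5 of the 9 libraries. The summed level of 6 cartilage genes was 2.78 to 3.56 FPKM in nitrate skin, 2.57 to 3.92 FPKM in bleomycin skin and 4.70 to 6.71 FPKM in control skin, with every control library above every nitrate library. Most of that sum was Sox6, which is not particular to cartilage, at 1.74, 3.24 and 0.925 FPKM in nitrate skin and 4.35, 6.35 and 4.99 FPKM in control skin. Acan, the cartilage proteoglycan aggrecan, ran the other way at low levels, 0.299, 0.124 and 0.760 FPKM in nitrate skin and 0.018, 0.056 and 0.039 FPKM in control skin. The part of cartilage in the Sox9 difference was not tested.

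Lef1 (ENSMUSG00000027985, chromosome 3, 131110471 to 131224356, plus strand) carries beta-catenin to Wnt target genes in matrix and shaft precursor cells. It stood at 2.65, 0.770 and 6.48 FPKM in bleomycin plus nitrate skin, 0.181, 0.959 and 1.96 FPKM in bleomycin skin, and 0.149, 0.501 and 1.05 FPKM in control skin. The groups overlapped, since nitrate replicate 2 lay below bleomycin replicates 2 and 3 and control replicate 3. Lef1 had a log2 fold change of 1.26 ± 0.53 over control (SE, limma, adjusted p = 0.147), and 1.78 (adjusted p = 0.0354) without nitrate replicate 2. With other single libraries left out in turn, the Lef1 fold change ran as low as 0.74.

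Msx2 (ENSMUSG00000021469, chromosome 13, 53466884 to 53473074, minus strand) is a homeobox factor of the matrix, placed upstream of Foxn1 by mouse genetics. Its levels were 22.4, 6.03 and 47.3 FPKM in bleomycin plus nitrate skin, 0.561, 3.80 and 12.7 FPKM in bleomycin skin, and 0.219, 1.16 and 3.58 FPKM in control skin. All nitrate libraries were above all control libraries, whereas bleomycin replicate 3 exceeded nitrate replicate 2. The log2 fold change over control, 3.12 ± 0.94, was the largest of the members and missed the threshold (SE, limma, adjusted p = 0.073, 95% interval 0.95 to 5.29). It was 3.87 (adjusted p = 0.0330) without nitrate replicate 2, and as low as 2.48 with another single library left out.

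Foxn1 (ENSMUSG00000002057, chromosome 11, 78357577 to 78386558, minus strand) is the factor lost in nude mice and drives hair keratin genes. Foxn1 measured 27.6, 6.64 and 33.4 FPKM in bleomycin plus nitrate skin, 1.64, 6.81 and 12.8 FPKM in bleomycin skin, and 1.12, 1.98 and 7.05 FPKM in control skin. Nitrate replicate 2 lay just below bleomycin replicate 2 and control replicate 3. Foxn1 had a log2 fold change over control of 2.40 ± 0.79 (SE, limma, adjusted p = 0.088), and 3.08 (adjusted p = 0.0337) without nitrate replicate 2.

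Gata3 (ENSMUSG00000015619, chromosome 2, 9857078 to 9890034, minus strand) directs inner root sheath fate and is also the defining factor of type 2 T cells and innate lymphoid cells. It was the member with the highest mean in each group, at 36.8, 22.4 and 36.6 FPKM in bleomycin plus nitrate skin, 8.71, 16.3 and 19.7 FPKM in bleomycin skin, and 15.4, 13.2 and 24.0 FPKM in control skin. Nitrate libraries were all above bleomycin libraries, and control replicate 3 exceeded nitrate replicate 2. Over bleomycin, the log2 fold change was 1.08 ± 0.33 (SE, limma, adjusted p = 0.161). Over control it was 0.84 ± 0.33 (SE, adjusted p = 0.132), and bleomycin over control gave -0.25 ± 0.33 (SE, adjusted p = 0.672). The lymphoid lists ran in another order. The summed level of 10 T cell genes was 24.8 to 28.3 FPKM in nitrate skin, 32.3 to 46.9 FPKM in bleomycin skin and 14.2 to 17.2 FPKM in control skin, and that of 6 genes of innate type 2 lymphoid cells was 11.4 to 13.9, 26.3 to 49.2 and 4.85 to 6.84 FPKM in the same order of groups. The mean of Gata3 was lowest in bleomycin skin, where both lymphoid lists were highest, but its bleomycin and control libraries overlapped. Without bleomycin replicate 1 its log2 fold change for bleomycin over control turned to 0.075. The part of lymphoid cells in the Gata3 values was not tested.

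Dsg4 (ENSMUSG00000001804, chromosome 18, 20436175 to 20471821, plus strand) is a desmosomal cadherin that holds hair shaft cells together and is mutated in lanceolate hair mice. It stood at 30.9, 5.37 and 31.5 FPKM in bleomycin plus nitrate skin, 0.0176, 5.73 and 11.3 FPKM in bleomycin skin, and 0.0376, 1.27 and 7.72 FPKM in control skin. Bleomycin replicate 1 and control replicate 1 held 1 and 2 reads, while nitrate replicates 1 and 3 held 1974 and 2087. Nitrate replicate 2 fell among the bleomycin and control libraries. The log2 fold change over control was 2.78 ± 1.16 (SE, limma, adjusted p = 0.149, 95% interval 0.10 to 5.46), so the size of any difference is poorly fixed.

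Transcripts annotated within or across Shh, Lgr5, Lef1 and Gata3 could share reads with them, and the labels do not say whether counting used strand. The largest such neighbour, 4930412O13Rik beside Gata3, reached 1.07 FPKM, and Gm26894 beside Shh reached 0.463 FPKM.

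Between bleomycin plus nitrate and bleomycin alone, the comparison of the therapy itself, 0 of the 9 tested members were called by limma, and 0% of all tested genes were called. At an unadjusted p under 0.05 there were 3 members, Lgr5, Sox9 and Gata3, against 17.9% of all genes. These were also the 3 tested members whose nitrate libraries all lay above the bleomycin libraries, an arrangement found in 9.4% of all tested genes. All 9 log2 fold changes were above 0, from 0.36 for Shh to 2.10 for Dsg4, with a median of 1.08 against -0.00 for all genes. Limma-voom on recovered reads also called 0 members. Between bleomycin and control, 0 of 9 were called, where 4.74% of all genes were called higher, 3.69% lower and 8.43% in either direction, and 0 reached an unadjusted p under 0.05, where 26.9% of all genes did. Gata3 alone had a negative fold change, and Shh was the only member whose bleomycin libraries all lay above control, against 18.4% of all genes. The comparisons share libraries in pairs, so their values are not independent.

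**Figure D2:**
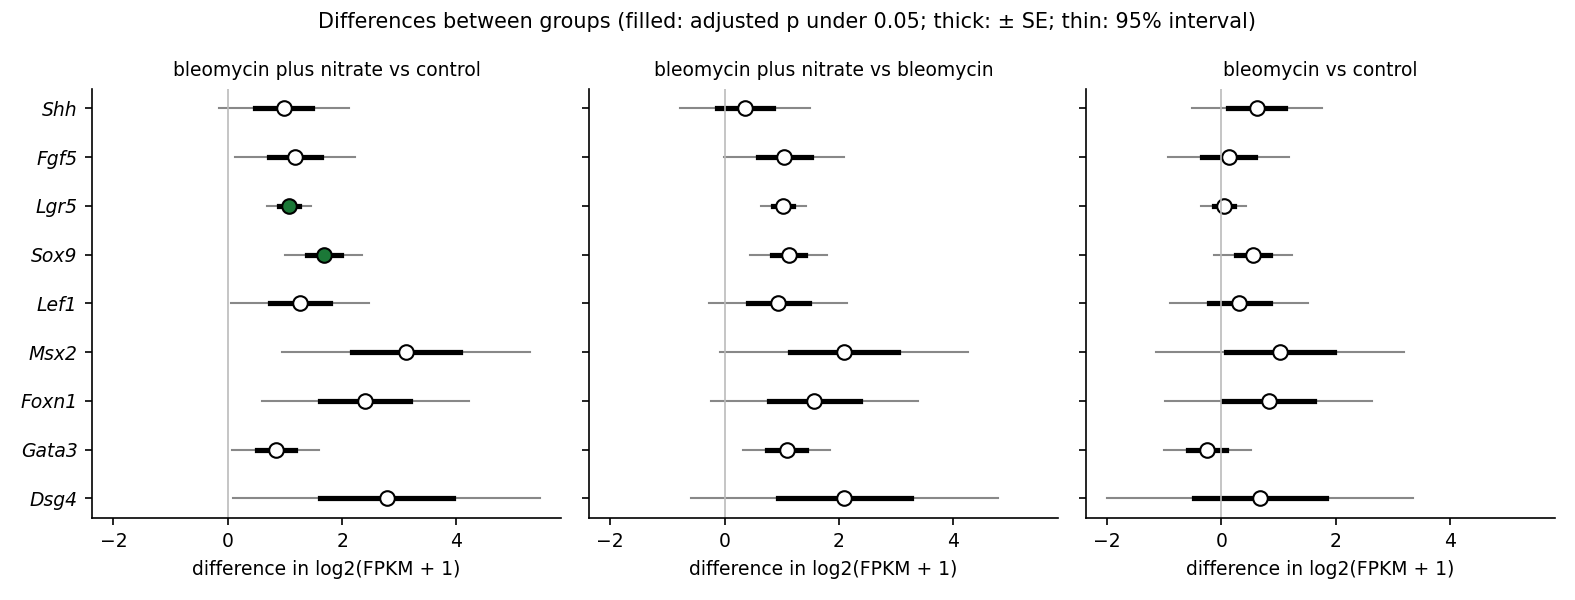
Log2 fold changes of the 9 tested members on the log2(FPKM + 1) scale with 95% intervals from limma, for the 3 comparisons. Filled points passed an adjusted p of 0.05, which only Lgr5 and Sox9 in bleomycin plus nitrate over control did; the intervals of Msx2, Foxn1 and Dsg4 are several times wider than that of Lgr5.

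Within groups, most members had the same lowest library. Nitrate replicate 2 was the lowest of its group in 10 of 10 members, bleomycin replicate 1 the lowest of its group in 9 and control replicate 1 the lowest of its group in 7. The exceptions among controls were Shh, Fgf5 and Gata3, lowest in control replicate 2, and Shh and Fgf5 were highest in control replicate 1. These libraries were also the lowest of their groups in the hair shaft keratins. Foxn1 and Lef1 put the 9 libraries in the same order. Of the 36 pairs of libraries, 35 stood in the same order for Lef1 and Foxn1 as for the hair shaft keratins, 34 for Msx2 and Dsg4, 31 for Sox9 and Gata3, 29 for Fgf5 and Lgr5, 28 for Edar and 23 for Shh. Shh thus followed the keratins least, and its values turned on nitrate replicate 3. Other gene lists matched some members in more pairs. Lgr5 and Gata3 matched 6 mammary gland genes in 34 and the Wnt and R-spondin genes in 33. Sox9 matched the mammary gland genes in 32, and Fgf5 the matrix transcription factors and BMP genes in 31. Those mammary gland genes were low, with a sum of 1.87 FPKM in bleomycin replicate 1 and 8.80 FPKM in nitrate replicate 3. Edar matched the FGF genes in 34 and Shh the proliferation genes in 30. Lef1, Foxn1, Msx2 and Dsg4 matched no other list in more pairs than the keratins. The skeletal muscle genes matched the members in 5 pairs for Msx2 to 15 for Edar, so most pairs stood in the opposite order.

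Single libraries of the 3 groups with similar keratin levels, picked after the values were seen, can be set side by side. Nitrate replicate 2, bleomycin replicate 2 and control replicate 3 had keratin means of 4.91, 4.84 and 5.13. In those libraries Foxn1 stood at 6.64, 6.81 and 7.05 FPKM and Dsg4 at 5.37, 5.73 and 7.72 FPKM. Sox9 stood at 17.2, 12.4 and 7.62 FPKM and Lgr5 at 3.97, 2.43 and 2.10 FPKM in the same libraries. Foxn1 and Dsg4 were thus no higher in the nitrate library, while Sox9 and Lgr5 were. Msx2, at 6.03, 3.80 and 3.58 FPKM, was also highest in the nitrate library, and Gata3, at 22.4, 16.3 and 24.0 FPKM, was highest in the control library. Lef1 stood at 0.770, 0.959 and 1.05 FPKM and Fgf5 at 1.20, 1.04 and 1.10 FPKM. Shh, at 0.824, 1.05 and 0.404 FPKM, was highest in the bleomycin library, and Edar, at 0.300, 0.143 and 0.648 FPKM, in the control library. With 1 library per group there is no test of this.

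A fit that added the hair shaft keratin mean as a covariate called 0 members between bleomycin plus nitrate and control, and 9 genes in all. The covariate differs between the groups, so such a fit can also remove a difference between them. The log2 fold change kept 0.78 ± 0.17 for Lgr5 (SE, limma, adjusted p = 0.120) and 1.19 ± 0.29 for Sox9 (SE, adjusted p = 0.148). It was 1.11 ± 0.50 for Msx2, 0.65 ± 0.37 for Foxn1, 0.27 ± 0.44 for Lef1 and 0.19 ± 0.30 for Dsg4 (SE, adjusted p from 0.386 to 0.830). Gata3 had 0.15 ± 0.23, Fgf5 0.58 ± 0.52 and Shh 0.82 ± 0.66 (SE, adjusted p from 0.630 to 0.813). In log2 units Msx2, Foxn1 and Dsg4, which had the largest fold changes without the covariate, lost most in this fit. Lef1 also went from 1.26 to 0.27 and Gata3 from 0.84 to 0.15.

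**Figure D3:**
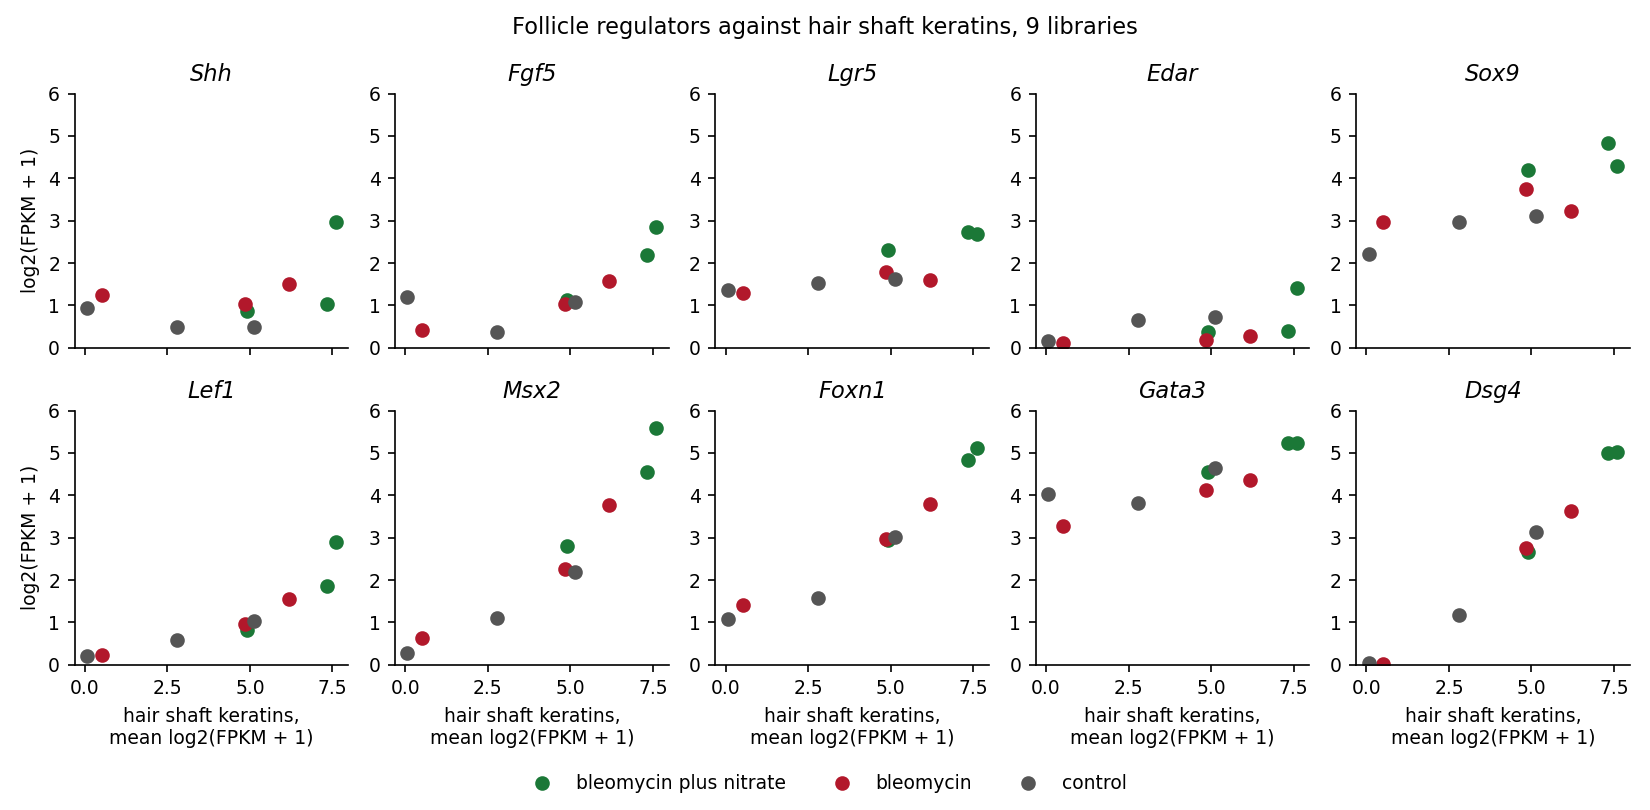
Level of each member, as log2(FPKM + 1), against the mean log2(FPKM + 1) of 12 hair shaft keratins in the same library, for 9 libraries in 3 groups. Foxn1, Dsg4 and Msx2 climb with the keratins in every group. For Lgr5 and Sox9, the point of nitrate replicate 2 lies above the bleomycin and control points of similar keratin level. Nitrate replicates 1 and 3, at keratin means of 7.33 and 7.60, have no such counterpart, since bleomycin and control points reach 6.19 at most.

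Genes whose log2(FPKM + 1) over the 9 libraries was most like a member's are given as a description with no test, since all libraries share the group differences. For Foxn1 they were Golga7b (r = 0.996), the hair keratin Krt36 (r = 0.994) and Capn8 (r = 0.993), and for Msx2 they were Gm7137 (r = 0.994), the keratin-associated protein gene Krtap31-1 (r = 0.991) and Golga7b (r = 0.991). For Dsg4 they were Calhm4, Gm10228 and Crym (r = 0.997 to 0.994), and for Lef1 Gm36176, Hes2 and Dlx2 (r = 0.986 to 0.984). Lgr5 was most like Agap3 (r = 0.984), the forkhead gene Foxc1 (r = 0.980) and the Wnt receptor gene Fzd2 (r = 0.978). Sox9 was most like Sh3bp5l (r = 0.987), Tmem139 and Slc31a1, Gata3 like Liph (r = 0.984), Gabrp and Tbc1d22b, and Fgf5 like Dok4 (r = 0.978), Pqlc2 and Morn4. Shh was most like Gtf2h3 (r = 0.978, Spearman's rho = 0.85), Cntrob and Srsf7, and Edar like Mrpl41 (r = 0.958), Cdk15 and Castor1. By rank, 320 genes had a higher rho with Shh than Gtf2h3 had, against 0 for Foxn1 and Golga7b. Genes with r above 0.95 numbered 199 for Foxn1, 177 for Dsg4, 171 for Msx2 and 94 for Lef1, against 21 for Gata3, 11 for Lgr5, 8 for Sox9 and 8 for Shh. Among the members, Msx2 and Foxn1 were the closest pair (r = 0.986, n = 9), and Lgr5 and Sox9 had r = 0.929 (n = 9).

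The pathway partners of the members were counted next, with all calls by limma between bleomycin plus nitrate and control unless another comparison is named. Of 12 hedgehog genes tested, 0 were called, with a median log2 fold change of 0.27. Gli1, the standard transcriptional readout of hedgehog signalling, was at 4.16, 3.84 and 12.7 FPKM in bleomycin plus nitrate skin, 2.25, 3.33 and 3.44 FPKM in bleomycin skin and 2.45, 2.13 and 2.48 FPKM in control skin. Like Shh, it was far the highest in nitrate replicate 3, and its nitrate libraries all lay above the others. The fold change of Gli1 was 1.06 ± 0.36 over control (SE, adjusted p = 0.093). Gli2 gave 0.71 ± 0.24 (SE, adjusted p = 0.094).

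Of 18 Wnt and R-spondin genes, 1 rose and 1 fell, with a median of 0.52. Wnt10a, a Wnt ligand of the follicle, rose by 0.73 ± 0.16 (SE, adjusted p = 0.0353), and the ligand gene Rspo1 fell, at -1.16 ± 0.21 (SE, adjusted p = 0.0226); both were picked as the called genes after their values were seen. Both were also called between bleomycin alone and control, Wnt10a at 1.01 ± 0.16 (SE, adjusted p = 0.0117) and Rspo1 at -1.64 ± 0.21 (SE, adjusted p = 0.006). Wnt10a stood at 15.6, 11.9 and 16.3 FPKM in bleomycin plus nitrate skin, 17.0, 17.9 and 18.2 FPKM in bleomycin skin, and 9.49, 6.43 and 9.32 FPKM in control skin, so the nitrate libraries lay between the other groups. Lgr4, the relative of Lgr5 and also an R-spondin receptor, averaged 20.1 FPKM in bleomycin plus nitrate skin and 8.54 FPKM in bleomycin skin (log2 fold change 1.14 ± 0.28, SE, adjusted p = 0.126). Tcf7l1, the repressive relative of Lef1, averaged 4.35 FPKM in bleomycin skin and 10.3 FPKM in control skin and fell in that comparison by 1.07 on the log2 scale (SE 0.14, adjusted p = 0.00583).

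Of 14 bulge and upper follicle genes, 3 rose and 1 fell. The transcription factor genes Foxc1 and Tbx1 rose by 1.22 ± 0.26 (SE, adjusted p = 0.032) and 1.37 ± 0.35 (SE, adjusted p = 0.0478), and Hopx by 0.98 (adjusted p = 0.0375). Cd34, a surface marker of the mouse bulge that blood vessel and connective tissue cells also carry, fell (-1.12, adjusted p = 0.0163). It was also low with bleomycin alone, at 13.6 to 17.9 FPKM. Bleomycin plus nitrate skin held 15.7 to 21.2 FPKM of Cd34 and control skin 31.5 to 45.4 FPKM. Between bleomycin and control, 0 of the 14 rose and 4 fell, among them Krt15, a keratin of bulge and basal cells (-1.96, adjusted p = 0.0144), and Nfib, a factor of bulge stem cells (-0.64 ± 0.14, SE, adjusted p = 0.0273). Hopx, Cd34 and Krt15 were named after their values were seen. For bleomycin plus nitrate over bleomycin, 0 of the 14 were called, 10 were above 0 and 8 had an unadjusted p under 0.05, with a median of 0.50. The mean log2(FPKM + 1) of the list was 4.29 to 4.51 in bleomycin plus nitrate skin, 3.60 to 4.10 in bleomycin skin and 4.15 to 4.31 in control skin, so nitrate and bleomycin libraries did not overlap.

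Of 16 matrix transcription factors and BMP genes, 6 rose and 0 fell, with a median of 1.05 and all 16 above 0. Foxq1, a forkhead gene of the hair shaft, averaged 6.40 FPKM in bleomycin plus nitrate skin and 2.11 FPKM in control skin (1.29 ± 0.29, SE, adjusted p = 0.0367). Hr, the hairless corepressor, averaged 81.3 FPKM and 36.3 FPKM in the same groups (1.09 ± 0.27, SE, adjusted p = 0.0444). The other 4 were Ovol1, Prdm1, Vdr and Jag1, named after their values were seen; Ovol1 and Prdm1 were also called higher in bleomycin alone over control. Of 12 hair shaft keratins, Krt84 rose (2.76 ± 0.59, SE, adjusted p = 0.0321) and the other 11 did not pass, though the median over the list was 4.33. Krt84 departed from the list in bleomycin replicate 1, at 4.28 FPKM, where the other 11 stood at 0.51 FPKM or less. Of 8 inner root sheath genes, 0 passed, with a median of 4.59.

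Of 9 FGF genes, Fgf18, a ligand of resting follicles, fell (-1.16 ± 0.17, SE, adjusted p = 0.0132). Fgf18 stood at 1.33, 1.56 and 0.708 FPKM in bleomycin plus nitrate skin and 1.45, 1.60 and 1.96 FPKM in bleomycin skin. Control skin held 3.75, 3.91 and 3.92 FPKM, so Fgf18 was also lower with bleomycin alone. Fgf22 averaged 8.82 FPKM in bleomycin plus nitrate skin and 2.15 FPKM in control skin without passing (1.66 ± 0.45, SE, adjusted p = 0.056). Of 9 ectodysplasin pathway genes, 0 were called; Edaradd, the adaptor of Edar, averaged 2.71 FPKM in bleomycin plus nitrate skin and 1.61 FPKM in control skin (0.51 ± 0.22, SE, adjusted p = 0.15). Of 11 desmosome genes, 5 rose and 0 fell, with a median of 0.89. Bleomycin alone over control gave 4 that rose, 0 that fell and a median of 0.91, and bleomycin plus nitrate over bleomycin a median of 0.12. Pkp3, a plaque protein gene, was among the 5 (1.33 ± 0.28, SE, adjusted p = 0.0316), and Dsg4's epidermal relative Dsg1b gave 0.79 ± 0.27 (SE, adjusted p = 0.091). The summed level of 9 interfollicular epidermis genes was 4791 to 8060 FPKM in bleomycin plus nitrate skin, 6719 to 9919 FPKM in bleomycin skin and 2306 to 4027 FPKM in control skin; its part in the desmosome counts was not tested. Of 13 dermal papilla genes, 0 rose and 1, Enpp2, named after its values were seen, fell. Between bleomycin plus nitrate and bleomycin, 0 genes of any of these lists were called.

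**Figure D4:**
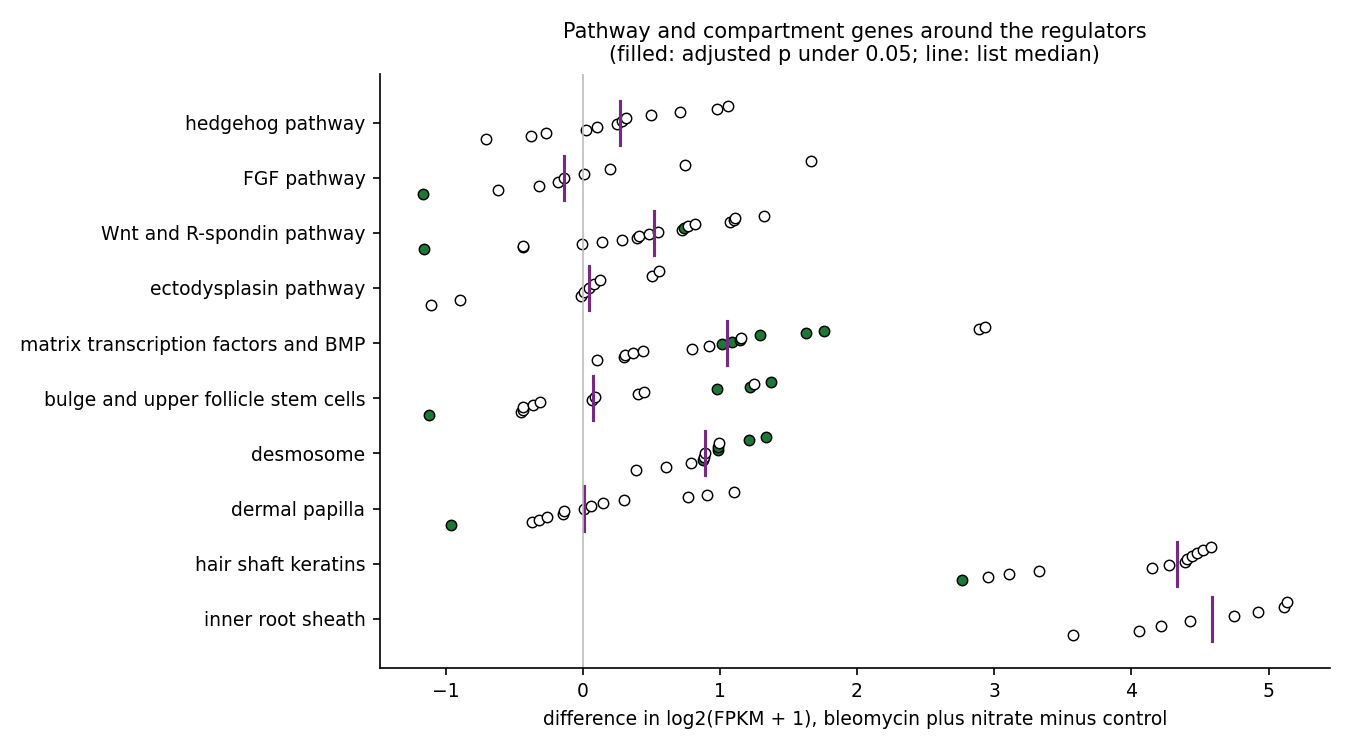
Log2 fold changes of bleomycin plus nitrate over control (horizontal axis, log2(FPKM + 1) scale) for the tested genes of 10 pathway and compartment lists. Each circle is a gene, filled where its adjusted p was under 0.05, and the line is the list's median; hair shaft and inner root sheath genes lie furthest right, at medians of 4.33 and 4.59, with 1 filled circle between them, while 6 of 16 matrix genes are filled.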

How the data were processed

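RNA was isolated from skin with an RNeasy kit and made into libraries with a SMARTER mRNA kit, per the labels' protocols, and the build was mm10, per the submitters' processing notes. For the aligner, the counter and their use of strand, the sources used here give nothing. FPKM values, for 54532 genes in 9 libraries, are as the authors deposited them. Low values were whole multiples of what 1 read is worth, so reads were recovered with 100% whole within 0.01, and their sums gave the depth of 15804050 to 18352592 reads per library. Precision rests on 3 libraries per group. No 2 columns were identical, and the highest correlation between libraries was 0.963.

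Genes with at least 1 FPKM in at least 3 of 9 libraries entered the test. Limma (version 3.58.1, under R 4.3.3) was run on log2(FPKM + 1): all libraries shared a model of 3 group means, and variances were moderated with a trend and robustly. P-values were two-sided and Benjamini-Hochberg adjusted over 14645 genes. The code was tested on simulated data. Alternatives were another pseudocount, no filter, other scalings, the compared groups alone, a replicate block, sample weights, voom on recovered reads, a hair shaft keratin covariate, and libraries left out. Of the scalings, that by median of ratios had nearly equal factors in all libraries, so it could change little. Python 3.11.15 and matplotlib 3.10.9 made the figures. Promoters came from RefSeq (GRCm38.p6).

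Named were all 10 members, up to 4 genes per list with the smallest p between bleomycin plus nitrate and bleomycin, and the 3 genes most correlated with each member. Some other list genes, most of them called against control, were named after their values were seen. Members, lists and tests were chosen with earlier results of these data known. No sample was left out of the main fit.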

Additional observations from a re-analysis of the deposited data

How the results depend on the processing

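Of the members' log2 fold changes under the alternatives, 132 of 144 for bleomycin over control, 143 of 144 for bleomycin plus nitrate over bleomycin and 127 of 144 for bleomycin plus nitrate over control kept their direction and their side of the threshold. Members called between bleomycin plus nitrate and control numbered 2 in the fit as reported, 1 with no filter, 0 with the hair shaft keratin covariate, 0 without control replicate 1 and bleomycin replicate 1 together, and 0 to 6 with each library left out in turn. In the other comparisons 0 members were called under any alternative.

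Genes called between bleomycin plus nitrate and control numbered 1249, against 294 with no filter, 306 with the compared groups alone, 2085 with sample weights, 9 with the covariate, 23 without both low-keratin libraries, and 45 to 2882 with a library left out. Between bleomycin and control 1234 were called, against 676 with no filter, 1947 with sample weights, 137 without both low-keratin libraries, and 334 to 695 with a library left out. Between bleomycin plus nitrate and bleomycin 0 were called, and 0 to 37 with a library left out.

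For bleomycin over control, the sign turned under the covariate for Fgf5 (-0.052), Lgr5 (-0.043) and Dsg4 (-0.097), and without both low-keratin libraries for Gata3 (0.0072). With a library left out, these differences ran from -0.15 to 0.42 for Fgf5, -0.068 to 0.18 for Lgr5, -0.0012 to 0.66 for Lef1, -0.47 to 0.075 for Gata3 and -0.065 to 1.73 for Dsg4. For bleomycin plus nitrate over bleomycin, Shh ran from -0.31, without nitrate replicate 3, to 0.73. The cause of these changes was not tested.

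A fit with the replicate number as a block called 3 members between bleomycin plus nitrate and control, adding Msx2 (adjusted p = 0.039), and 10 genes between bleomycin plus nitrate and bleomycin. The numbers are not known to pair the samples: deviations of same-numbered libraries correlated between -0.39 and 0.52, and a library was most like its own number in 9 of 18 matches. Depth limits Edar, with 5 to 115 reads, and Dsg4, with 1 and 2 reads in the low-keratin libraries.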
